A study of Homo sapiens with 12 samples.

Results

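Aminoacyl-tRNA synthetases attach each amino acid to its tRNA, the step that sets the meaning of the genetic code. The genes described here are the 34 synthetase genes of a fixed list of names, out of 58037 genes in the count table, and all 34 had a row. Of these, 17 encode enzymes of the cytosol, 15 encode enzymes of mitochondria (all with names ending in 2), and the remaining 2, *GARS1* and *KARS1*, each supply both compartments from the same gene. *PARS2*, a mitochondrial synthetase gene that is not on the list, is given beside the others where it completes a comparison.

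The RNA-seq experiment used HCT116, a human colorectal carcinoma cell line with wild-type genotype in the labels, in 4 groups of 3 samples treated for 8 h with DMSO, with 10 μM of the MDM2 inhibitor Nutlin-3a, with 20 nM of the P-TEFb inhibitor NVP-2, or with Nutlin-3a and NVP-2 together at these doses. All 12 columns of the table as analysed here held the same count for every gene, with 0 genes differing, so they were counted as 1 sample of 22720718 counts. The treatment behind this profile is not known. For this reason no response to Nutlin-3a or NVP-2 and no spread between replicates was computed, and each value below comes from 1 profile with an interval for counting error only.

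In human cells, protein synthesis in the cytosol and in mitochondria is served largely by separate synthetase genes. Cytosolic synthetases charge the tRNAs that cytosolic ribosomes use, whereas mitochondrial synthetases are made from nuclear genes, are imported, and charge tRNAs encoded by the mitochondrial genome for a small set of respiratory chain proteins. The enzymes fall into classes I and II, which differ in the fold of the catalytic domain. Several cytosolic enzymes form the multi-synthetase complex, held together by the scaffold proteins that *AIMP1*, *AIMP2* and *EEF1E1* encode.

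The profile held the epithelial markers of the labelled line at high levels, with *EPCAM* at an RPKM over merged exons of 182 and *KRT8* at 514. Of 8 epithelial and intestinal markers 5 had an RPKM of at least 1, whereas *CDX2* had 65 counts, *VIL1* 4 counts and *CDX1* 0 counts. Of 7 markers of blood, endothelium and fibroblasts none reached an RPKM of 1 over merged exons (*COL1A1* had 1.48 by canonical transcript), and their 221 counts came mostly from *COL1A1* (199 counts).

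RPKM scales the counts of a gene by its length in kilobases and by the total of the profile, and CPM scales them by the total alone. Since the RPKM of a gene depends on the length assigned to it, it is given here for the merged exons of all annotated transcripts and for the canonical transcript alone. For 16 of the 34 genes the merged exons were over 2 times as long as the canonical transcript, and for *RARS2*, where the gap was widest, 7.86 times. The annotation used for lengths is later than that used for counting. For the cytosolic and mitochondrial genes of the same amino acid, the ratio is given on both scales where the length changes which is higher.

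Cytosolic synthetase mRNAs were by median 7.72 to 12.8 times as abundant as mitochondrial ones in this profile, depending on the scale. The median RPKM over merged exons was 31.8 for the 17 cytosolic genes and 2.48 for the 15 mitochondrial genes, a ratio of medians of 12.8. With the length of the canonical transcript the medians were 70.1 and 6.22, a ratio of 11.3. Over all 19629 protein-coding genes the medians were 0.589 and 0.906 on these scales. The median cytosolic gene lay at percentile 93.7 of protein-coding genes by merged-exon RPKM, and the median mitochondrial gene at percentile 66.3. The ratio of the cytosolic to the mitochondrial median was 9.05 by counts and 7.72 by coding length.

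Over merged exons all the synthetases except *WARS2* passed the expression threshold of the study's methods, an RPKM of 1, and by canonical transcript all 34 did. The count over merged exons was 33 of 34, beside 44.6% of all protein-coding genes. At an RPKM of 10 over merged exons the count was 17 of 34, beside 16.2% of protein-coding genes, and was made up of 14 cytosolic genes, both dual-use genes and *IARS2*. With canonical transcripts 25 of 34 reached 10, beside 22.2% of protein-coding genes, and these were all 17 cytosolic genes, both dual-use genes and 6 of the 15 mitochondrial genes. The 34 genes together held 111172 counts, or 0.489% of the profile, of which the cytosolic genes held 85807, the mitochondrial genes 13163 and the dual-use genes 12202.

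**Figure D1:**
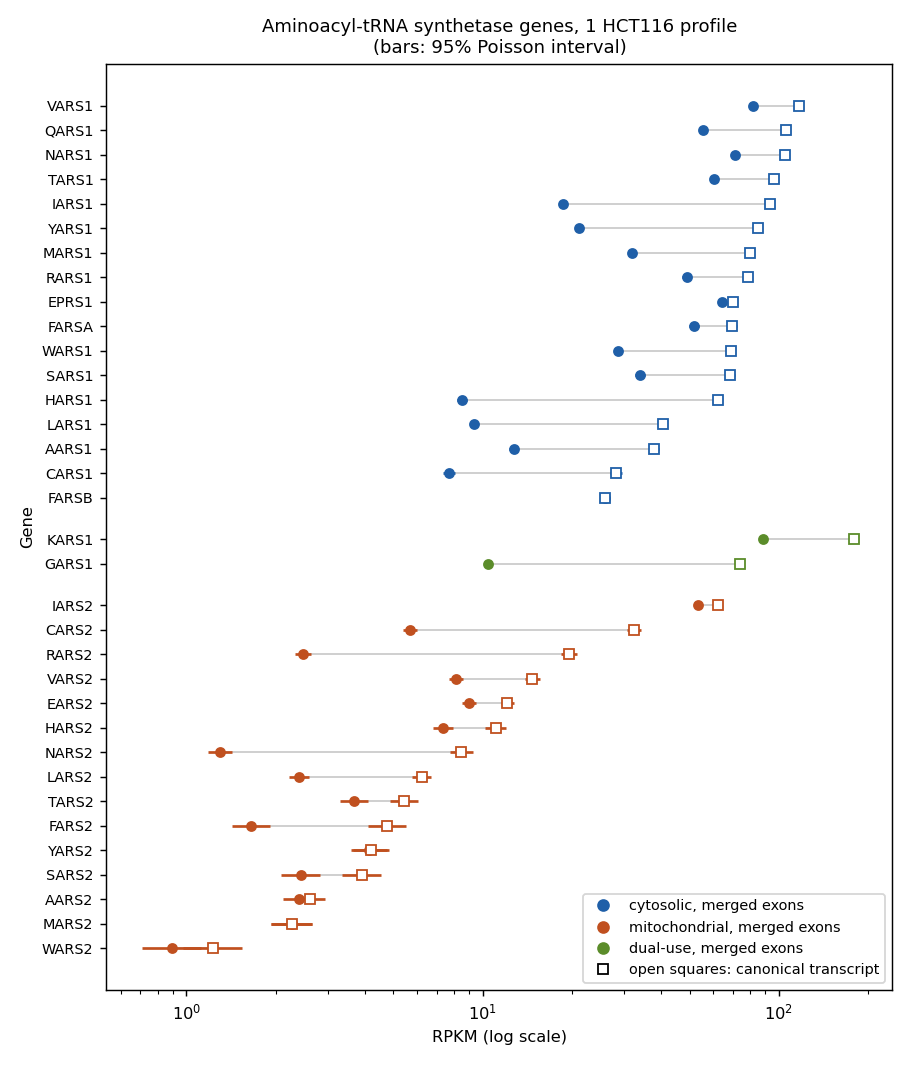
RPKM of the 34 synthetase genes on a log scale, for merged exons (filled circles) and for the canonical transcript (open squares), with bars for 95% Poisson intervals. *KARS1* lies at the top on both scales (88.0 and 179) and *WARS2* at the bottom (0.896 and 1.23), and *IARS2* stands apart from the other mitochondrial genes.

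**Figure D2:**
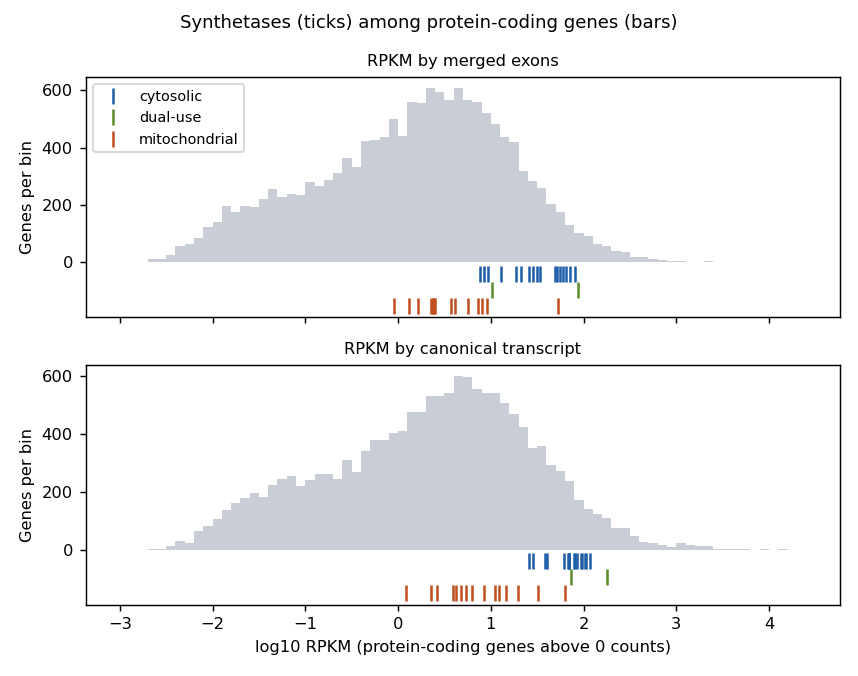
Number of protein-coding genes per bin of log10 RPKM (grey bars), for merged exons (top) and canonical transcripts (bottom), with a tick for each synthetase gene by group. The cytosolic ticks lie at the upper end of the distribution, whereas the mitochondrial ticks spread from its middle upward.

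Among the cytosolic enzymes the valyl-tRNA synthetase gene *VARS1* was the highest by counts, over merged exons and by canonical transcript, whereas by coding length *NARS1* (176), *YARS1* (131) and *WARS1* (129) were above it (126). It lies in the major histocompatibility region of chromosome 6 (chr6:31777518-31795752 in hg38, minus strand) and had 10893 counts, an RPKM of 81.5 over merged exons (95% Poisson interval 80.0 to 83.1) and of 117 over the canonical transcript (114 to 119). The next levels over the canonical transcript were those of *QARS1*, for glutamine, at 106 (103 to 109) and *NARS1*, for asparagine, at 105 (102 to 107), whose intervals overlapped. Over merged exons *NARS1* (70.9) was above *QARS1* (55.2). *TARS1*, for threonine, followed at 96.3 (93.9 to 98.8) and *IARS1*, for isoleucine, at 93.1 (91.3 to 95.01), again with overlapping intervals.

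The middle of the cytosolic group was tightly packed. On the scale of the canonical transcript *YARS1* (tyrosine) had an RPKM of 84.7, *MARS1* (methionine) of 80.0 and *RARS1* (arginine) of 78.5. Over merged exons this order was reversed, with 21.2, 31.8 and 48.8. The genes *EPRS1*, *FARSA*, *WARS1* and *SARS1* lay between 68.3 and 70.1, and the interval of each overlapped that of its neighbour. *EPRS1* is unusual in that its protein joins the glutamyl- and prolyl-tRNA synthetases in a single chain, and *WARS1* is the tryptophan enzyme, known as an interferon-induced gene.

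The lowest cytosolic levels on this scale belonged to *HARS1* (histidine) at 62.0, *LARS1* (leucine) at 40.5, *AARS1* (alanine) at 37.9, *CARS1* (cysteine) at 28.3 and *FARSB* at 25.8. The whole cytosolic group thus spanned 4.51-fold by canonical transcript and 10.6-fold by merged exons. The wider range over merged exons came with genes whose merged exons were much longer than the canonical transcript. *HARS1* had 14155 bases of merged exons against 1948 in the canonical transcript, and an RPKM of 8.54 over the former. *IARS1*, with 22418 against 4483 bases, had an RPKM of 18.6 over merged exons.

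Phenylalanyl-tRNA synthetase is the only cytosolic enzyme of the group built from different subunits, the α subunit from *FARSA* and the β subunit from *FARSB*. *FARSB* had more counts, with 3968 against 2861 for *FARSA*. Per length of canonical transcript *FARSA* was the higher, at an RPKM of 69.5 against 25.8, a ratio of 2.69 (95% exact interval 2.56 to 2.83). Per coding length the order turned, with a ratio of 0.836 (0.796 to 0.877), since the canonical *FARSB* transcript has 6761 bases of which 1767 are coding. The subunit mRNAs were therefore within 2.69-fold of each other on each of these scales, without an order that held across them.

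The 7 listed synthetases of the multi-synthetase complex, *EPRS1*, *IARS1*, *LARS1*, *QARS1*, *MARS1*, *KARS1* and *RARS1*, had RPKM values over the canonical transcript between 40.5 and 179, with a median of 80.0. The 11 cytosolic genes outside the complex had a median of 69.0 and a range from 25.8 to 117, so the groups overlapped over most of their range. By merged exons the medians were 48.8 and 28.6, and by coding length 84.2 and 98.8, so that no order held across the scales. The scaffold genes were lower than all 7 of these enzymes per canonical transcript, with *AIMP2* at an RPKM of 32.0, *AIMP1* at 21.5 and *EEF1E1* at 14.5. Over merged exons this order did not hold throughout, since *AIMP2* (21.0) lay above *LARS1* (9.34) and *IARS1* (18.6). A same-strand exon of another annotated gene overlaps *EEF1E1*, so its level is uncertain. By class, the 9 cytosolic class I genes had a median of 80.0 over the canonical transcript and the 7 class II genes of 68.3, whereas over merged exons the medians were 28.6 and 33.97, leaving out *EPRS1*, which holds a domain of each class.

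Of the dual-use genes, *KARS1* was the most abundant of all 34 synthetases per length, whereas *GARS1* lay among the cytosolic genes. *KARS1*, for lysine, on chromosome 16 (chr16:75627474-75648643, minus strand), had 8102 counts, an RPKM of 88.0 over merged exons (86.1 to 90.0) and of 179 over the canonical transcript (175 to 183). Its interval was above that of *VARS1*, the next gene, on both scales. *GARS1*, for glycine, on chromosome 7, had 4100 counts and an RPKM of 74.0 over the canonical transcript (71.8 to 76.3), which overlapped the interval of *RARS1*. Over merged exons, whose length was 17366 bases against 2437, *GARS1* had an RPKM of 10.4. The ratio of *KARS1* to *GARS1* was accordingly 2.42 (2.33 to 2.51) by canonical transcript and 8.47 (8.16 to 8.80) by merged exons. The table counts reads per gene, so transcripts for the cytosolic and the mitochondrial form of either enzyme cannot be told apart.

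The mitochondrial group spanned 50.6-fold per canonical transcript and 59.4-fold over merged exons. Without *IARS2*, a choice made after seeing the data, the range was 26.3-fold and 10.1-fold, so that over merged exons it was no wider than that of the cytosolic genes. At the top stood *IARS2*, the isoleucine enzyme on chromosome 1 (chr1:220094132-220148041, plus strand). It had 5000 counts, an RPKM of 53.2 over merged exons (51.8 to 54.7) and of 62.3 over the canonical transcript (60.6 to 64.1). This was higher than 5 of the 17 cytosolic genes per canonical transcript and than 12 of them over merged exons. The other mitochondrial genes reached at most 1431 counts, in *EARS2*.

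Below *IARS2*, the order by canonical transcript was *CARS2* (cysteine) at an RPKM of 32.4, *RARS2* (arginine) at 19.5, *VARS2* (valine) at 14.7, *EARS2* (glutamate) at 12.1 and *HARS2* (histidine) at 11.1. *CARS2* and *RARS2* were among the genes whose value depended most on length, since they had 5.70 and 2.48 over merged exons. The lower genes were *NARS2* (asparagine) at 8.48, *LARS2* (leucine) at 6.22, *TARS2* (threonine) at 5.44, *FARS2* (phenylalanine) at 4.77, *YARS2* (tyrosine) at 4.20 and *SARS2* (serine) at 3.91. From *LARS2* down to *SARS2* each interval overlapped that of the next gene, so that neighbours in this order were not resolved at the depth of the profile.

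The lowest 3 genes were *AARS2* (alanine) at 2.61 (2.32 to 2.94), *MARS2* (methionine) at 2.27 (1.93 to 2.65) and *WARS2* (tryptophan) at 1.23 (0.974 to 1.54) by canonical transcript. *WARS2*, on chromosome 1 (chr1:119031216-119140654, minus strand), had only 78 counts, a CPM of 3.43, and an RPKM over merged exons of 0.896, whose interval of 0.709 to 1.12 includes the threshold of 1. *PARS2* (proline), which is not on the list, lay within the range of the mitochondrial genes at 5.14. By class, the 9 mitochondrial class I genes had a median of 12.1 per canonical transcript and the 6 class II genes of 5.10, with *HARS2* (11.1) the highest of the latter.

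For 15 amino acids the list holds a cytosolic and a mitochondrial gene, which gives 16 pairs as *FARSA* and *FARSB* were each set against *FARS2*. The cytosolic gene was higher in 15 of 16 pairs by merged exons and in 15 of 16 by canonical transcript, with intervals clear of 1, and the median ratio was 12.005 and 10.2, respectively. The exception differed between the scales. Over merged exons it was isoleucine, with an *IARS1* to *IARS2* ratio of 0.350 (95% exact interval 0.338 to 0.362), which became 1.49 (1.44 to 1.55) by canonical transcript. By canonical transcript it was cysteine, with a *CARS1* to *CARS2* ratio of 0.874 (0.814 to 0.939), against 1.35 (1.26 to 1.45) over merged exons. In the other 14 pairs the cytosolic gene was the higher on both scales, by counts and by coding length.

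The widest gap by canonical transcript was that of tryptophan, where *WARS1* exceeded *WARS2* 56.0-fold (44.8 to 71.0). Methionine followed at 35.3-fold (30.1 to 41.6) and tyrosine at 20.2-fold (17.5 to 23.3). Over merged exons the widest gap was that of asparagine, 54.5-fold (49.7 to 59.9), against 12.4-fold (11.3 to 13.6) by canonical transcript, since the merged exons of *NARS2* are 6.52 times as long as its canonical transcript. The pairs for threonine (16.4 and 17.7), serine (13.98 and 17.5) and valine (10.0 and 7.93) were among those that length moved less. The narrowest pairs other than isoleucine and cysteine by canonical transcript were arginine at 4.03, *FARSB* over *FARS2* at 5.41, histidine at 5.60 and glutamate at 5.78. By coding length these ratios were 3.34, 16.7, 4.40 and 1.87, respectively.

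**Figure D3:**
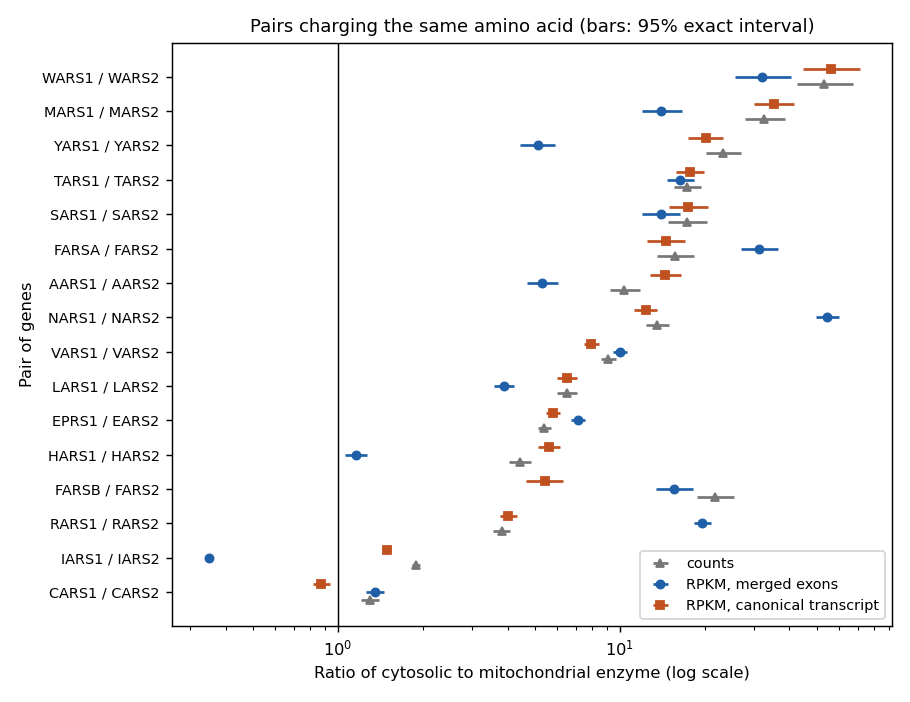
Ratio of the cytosolic to the mitochondrial gene for the same amino acid on a log scale, by counts (triangles), by RPKM over merged exons (circles) and by RPKM over the canonical transcript (squares), with 95% exact intervals. The line marks a ratio of 1, and *IARS1* over *IARS2* (0.350 over merged exons) and *CARS1* over *CARS2* (0.874 by canonical transcript) are the points to its left.

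*HARS1* and *HARS2* lie head to head on chromosome 5, *HARS1* on the minus strand (chr5:140673035-140691537) and *HARS2* on the plus strand (chr5:140691430-140699305). Their canonical transcripts start 85 bp apart and point away from each other. Between the starts lie 84 bases, chr5:140691371-140691454, and some other annotated transcripts of both genes begin within or beyond them. The outer 30 bases on each side are shown because both genes are read outward from this stretch. They are given 5′ to 3′ on the plus strand, from the RefSeq promoters of GRCh38.p14, and the capitals mark a match of the ETS-type motif CCGGAAGT or its reverse complement ACTTCCGG.

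HARS1 side, chr5:140691371-140691400: gACTTCCGGctatcgagtcgctgggtcgca
HARS2 side, chr5:140691425-140691454: caaaaattatttccggctcctcCCGGAAGT

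From this shared stretch, *HARS1* had 2746 counts and *HARS2* had 621. The ratio was 5.60 (5.13 to 6.12) by canonical transcript and 1.16 (1.06 to 1.27) by merged exons, and the counting kept the strands apart. The same motif was found in the promoters of 7 of the 29 members with a RefSeq promoter, *CARS1*, *EARS2*, *HARS1*, *HARS2*, *NARS1*, *TARS1* and *WARS1*, beside 4.95% of the promoters of all 27305 genes in that set and 11.9% of those of protein-coding genes with an RPKM of at least 1. A promoter here runs from 250 bases before to 50 bases after the RefSeq start. The promoters of *HARS1* and *HARS2* overlap, so the matches counted for these genes are the same sites. *AARS2*, *LARS1*, *VARS1*, *VARS2* and *YARS1* have no entry in the set.

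Transcription of many cytosolic synthetase genes is known to be raised when amino acids are short, through the transcription factor ATF4. The element that ATF4 binds varies, and TGATGCAA is a form of it. These 8 letters were found, on either strand, in the promoters of 6 of 14 cytosolic genes, and in those of 0 of 13 mitochondrial and 0 of 2 dual-use genes. They were present in 1.08% of the promoters of all 27305 genes and in 0.681% of those of protein-coding genes with an RPKM of at least 1. In 5 of the 6 genes the match began within 14 bases of the RefSeq start, whereas in *AARS1* it began 187 bases before it. The 30 bases around each match are shown so that their positions and flanks can be compared. They are written 5′ to 3′ on the strand of the gene, with the 8 letters or their reverse complement TTGCATCA in capitals, and are in the order of their place from the start.

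AARS1, chr16:70289675-70289704, minus strand: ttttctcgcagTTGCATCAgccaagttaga
IARS1, chr9:92293692-92293721, minus strand: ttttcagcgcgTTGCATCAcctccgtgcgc
MARS1, chr12:57488053-57488082, plus strand: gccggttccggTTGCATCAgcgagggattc
CARS1, chr11:3057407-3057436, minus strand: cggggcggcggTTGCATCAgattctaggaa
TARS1, chr5:33440956-33440985, plus strand: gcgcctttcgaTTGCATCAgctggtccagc
NARS1, chr18:57621804-57621833, minus strand: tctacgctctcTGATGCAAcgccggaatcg

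The match read in reverse complement along the gene in 5 of these genes and forward in *NARS1*. Of 10 other genes of the amino acid response with a promoter entry, *CHAC1* held the 8 letters. The synthetase genes with them were not uniformly high, with RPKM values by canonical transcript from 28.3 in *CARS1* to 105 in *NARS1*. With any base at the sixth position, TGATGNAA, *GARS1* and *YARS2* were added, giving 8 of 29 members, the former 6 included. This stood beside 4.46% of all genes and 2.50% of expressed protein-coding genes. Of the 10 other genes of the amino acid response, 3 then matched, namely *ASNS*, *CHAC1* and *SLC3A2*. The E-box letters CACGTG were found in *IARS1*, *CARS2*, *EARS2* and *MARS2*, 4 of 29 members beside 8.77% of all genes and 13.5% of expressed protein-coding genes, a share near that of the members. These matches describe the sequence, and binding of a factor was not measured.

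ATF4 and the genes it is known to control in amino acid shortage were present at very different levels. *ATF4* itself had an RPKM over merged exons of 82.4 (80.1 to 84.7). The amino acid transporter subunits *SLC7A5* and *SLC3A2* had 160 and 55.4, the serine synthesis genes *PSAT1* and *PHGDH* 60.1 and 6.66, and the asparagine synthetase gene *ASNS* 16.0. The stress-linked members were low, *DDIT3* at 1.82 with 54 counts and *CHAC1* at 0.322 with 15 counts. Same-strand exons of other annotated genes overlap *DDIT3* and *ASNS*, so the levels of both are uncertain. *SESN2* (7.50), *TRIB3* (5.28) and the cystine transporter *SLC7A11* (2.77) were low to moderate on the same scale, and 10 of the 11 genes had an RPKM of at least 1 and 5 of at least 10. By canonical transcript *PHGDH* had 32.8, the same as *ASNS*. Whether these levels are those of untreated cells is not known.

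Because *WARS1* is itself induced by interferon, other interferon-induced genes were set beside it. *WARS1* had 4137 counts and an RPKM over merged exons of 28.6, whereas *IRF1* had 0.459 with 128 counts. *GBP1* and *GBP2* had 2 counts each and *IDO1* had 0 counts, where the interval of its RPKM over merged exons reaches 0.0465. These 4 genes each had an RPKM below 1 over merged exons, with *IRF1* at 1.59 by canonical transcript. Whether interferon bears on the level of *WARS1* was not tested.

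The mRNAs of factors that carry charged tRNAs onward ranged from far above the synthetases to among them. *EEF1A1*, which delivers aminoacyl-tRNA to the cytosolic ribosome, had an RPKM over merged exons of 527 and its isoform gene *EEF1A2* 114. The exchange factor subunits *EEF1B2* and *EEF1D* had 299 and 67.9. *EEF1D* thus lay below *KARS1*, *VARS1* and *NARS1* on this scale. By canonical transcript this order turned, with *EEF1D* at 305 and *KARS1*, the highest synthetase, at 179. In mitochondria the corresponding factor *TUFM* had 294 and its exchange factor *TSFM* 11.1, so that *TUFM* exceeded each of the 15 mitochondrial synthetases. The row of *EEF1G* held 0 counts. Of its merged exons 99.7% overlap those of another annotated gene on the same strand. Same-strand exons of other annotated genes also overlap *EEF1B2*, *TUFM* and *TSFM*, so their levels are uncertain.

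Mitochondria have no glutaminyl-tRNA synthetase of their own; glutamate is placed on the glutamine tRNA and is then converted by an amidotransferase of 3 subunits. The genes of these subunits had RPKM values by canonical transcript of 14.03 (*GATB*), 6.23 (*GATC*) and 4.77 (*QRSL1*), beside 12.1 for *EARS2*. Over merged exons they were 2.83, 5.98 and 3.59, beside 9.01, so that *GATB* was the lowest. *MTFMT*, which formylates the initiator methionyl-tRNA in mitochondria, had 7.57, against 2.27 for *MARS2*. These 4 genes thus lay within the range of the mitochondrial synthetases. A same-strand exon of another annotated gene overlaps *GATC*, so its level is uncertain.

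Among genes that clear mischarged tRNA, *DTD1* had an RPKM over merged exons of 9.43 and *DTD2* of 2.18, whereas *AARSD1* had 0.261 with 22 counts and the pseudogene *PRORSD1P* had 1 count. Same-strand exons of other annotated genes overlap all 4 of these genes, so their levels are uncertain. Selenocysteine is made on its tRNA rather than by a synthetase of its own. The genes of this path had RPKM values over merged exons of 5.79 (*SEPHS2*), 4.10 (*EEFSEC*), 0.281 (*SEPSECS*) and 0.252 (*PSTK*), all below the 17 cytosolic synthetases.

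To set the supply of synthetases beside the use of each amino acid, codons were weighted by the RPKM of the gene over merged exons. These weights were kept where the synthetase level is given by canonical transcript. The canonical coding sequences of 19629 genes were used. They include the 13 of the mitochondrial genome, which are translated in mitochondria, so the usage values mix the compartments. Usage ranged from 1.39% for cysteine to 11.05% for leucine. Across 19 amino acids the Spearman correlation between usage and the RPKM of the cytosolic or dual-use synthetase was 0.153 by merged exons and -0.0421 by canonical transcript. Without genes of the mitochondrial genome and ribosomal proteins in the usage it was 0.216 by merged exons. This is a description of 1 profile, in which the same counts enter the weights and the synthetase levels, and it shows no order shared by both. Leucine, the most used amino acid, had one of the lowest synthetase levels by canonical transcript, 40.5, or 3.67 RPKM per percent of usage. Alanine, with 7.44% of codons, had 37.9, or 5.10 per percent. At the other end tryptophan, with 1.43% of codons, had 69.0, or 48.1 per percent, and lysine, with 5.78%, had 179, or 31.0 per percent.

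**Figure D4:**
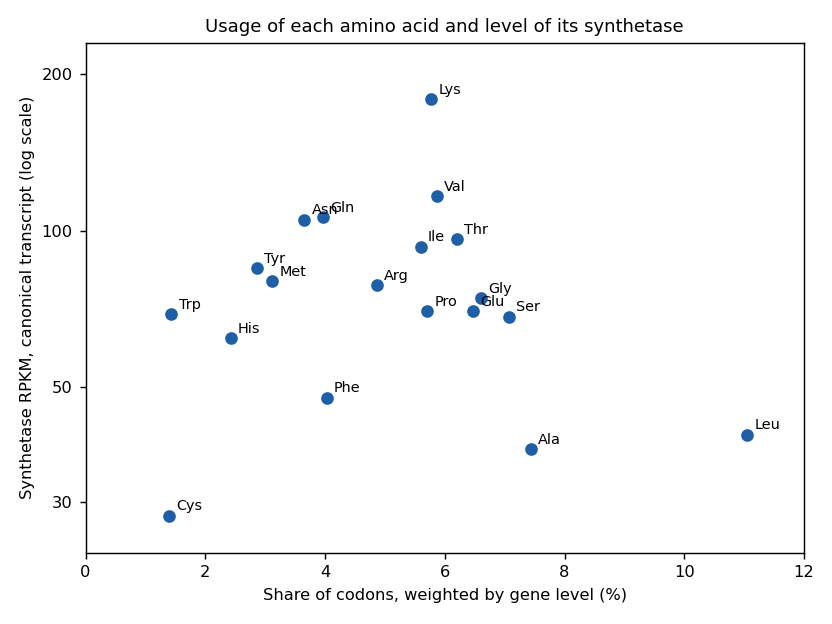
Share of codons for each amino acid, weighted by the RPKM of each gene over merged exons (x axis, in percent). The y axis gives the RPKM of its cytosolic or dual-use synthetase over the canonical transcript (log scale). Each point is an amino acid, with the mean of *FARSA* and *FARSB* for Phe, and *EPRS1* used for both Glu and Pro. Leu and Ala lie at high usage with low levels and Trp at low usage with a level of 69.0. Genes of the mitochondrial genome are included in the share of codons.

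The same was done within mitochondria, with the 13 coding sequences of the mitochondrial genome. Across 16 amino acids, with *PARS2* included, the Spearman correlation with the mitochondrial synthetase was -0.103 by merged exons and -0.244 by canonical transcript. Glycine and lysine, whose genes *GARS1* and *KARS1* are dual-use, were left out here, though they were kept in the correlation above. Leucine made up 16.8% of these codons, and *LARS2* had an RPKM by canonical transcript of 6.22. Isoleucine made up 8.57%, with *IARS2* at 62.3, and threonine 9.56%, with *TARS2* at 5.44. Cysteine was the rarest, at 0.503%, and *CARS2* was the second highest of the 15 genes by canonical transcript, at 32.4. This rank depended on the length. Over merged exons *CARS2* (5.70) lay below *IARS2*, *EARS2* (9.01), *VARS2* (8.13) and *HARS2* (7.35). By coding length it (35.1) lay below *IARS2* and *EARS2* (40.1).

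The listed genes lie on 14 chromosomes, with 6 on chromosome 1 and 5 each on chromosomes 5 and 6. Besides *HARS1* and *HARS2*, the valine pair shares a chromosome, with 851059 bp from the end of *VARS2* to the nearest end of *VARS1*. A same-strand exon of another annotated gene overlaps 8 of the 34 genes. The overlap covers 63.0% of the merged exons of *VARS2* and 48.2% of those of *SARS2*, and at most 4.09% in the other 6. The gene that overlaps *SARS2* had a row with 0 counts. How reads in shared exons were assigned is not given in the sources used here, so the level of *SARS2* (171 counts) is uncertain for this reason. The gene that overlaps *VARS2* (1195 counts) had no row, so for *VARS2* a sharing of reads with it was not shown. The table also holds 14 pseudogenes named after listed genes, with 4 counts in all.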

How the data were processed

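RNA-seq libraries from poly(A) RNA of HCT116 cells (12 samples, 4 groups of 3) were read as 75-nt single ends. According to the methods, the authors mapped reads to hg38 with ContextMap, using BWA, and obtained strand-specific gene counts with featureCounts and Gencode 25; the deposited values are raw counts. Columns were matched to samples by name. As all 12 were identical, they were used as 1 profile of 22720718 counts, and the planned edgeR test between groups was not run. The members and lists were chosen with earlier results of these data known. All listed synthetases were named, together with the lists of related genes, except for a few related genes that are not reported here.

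Identifiers were matched without suffix to GENCODE v44 (56948 of 58037). CPM and RPKM were computed from the total of the column, with merged exons as the main length and the canonical transcript or coding length as alternatives. Intervals of 95% are exact Poisson intervals for levels and Clopper-Pearson intervals for ratios, and cover counting error only, since reads without molecular identifiers are not independent molecules. Genes are not replicates, so no p-value was computed. Amino acid usage was taken from GENCODE v44 coding sequences in place of the RefSeq proteins first planned. Promoters were those of RefSeq (GRCh38.p14). Motifs were searched on both strands, and the motifs, the multi-synthetase complex group and the length alternative for usage were chosen after values were seen. Functions were tested on simulated data. Python 3.11.15 with numpy 2.4.6, pandas 2.3.3 and scipy 1.17.1 was used.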

Additional observations from a re-analysis of the deposited data

How the results depend on the processing

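No paired analysis was possible because the table gives each gene 1 count that is the same for every sample, and for the same reason the alternatives of tool, filter, replicate block and left-out replicate for a test between conditions were not run. The fold range from the highest to the lowest of the 34 genes was 98.2 by merged exons, 145 by canonical transcript and 62.6 by coding length. The number of genes with an RPKM of at least 1 was 33 by merged exons and 34 under each of the 5 alternatives tried (canonical transcript, coding length, the other totals and a CPM of 1). The median RPKM by canonical transcript and by coding length was 70.1 and 84.8 for cytosolic, 6.22 and 10.98 for mitochondrial and 127 and 140 for dual-use genes, against 31.8, 2.48 and 49.2 by merged exons. With the total without genes of the mitochondrial genome these medians were 35.5, 2.77 and 54.9, and with the total of nuclear protein-coding genes 38.5, 3.00 and 59.5, as follows from the smaller totals. In CPM they were 193, 21.3 and 269. Without *EPRS1* the cytosolic median was 30.2. The median ratio over the 16 pairs was 12.005 by merged exons and 10.2 by canonical transcript. It was 11.2 by coding length and 12.001 by counts. By merged exons with *EPRS1* over *PARS2* added (chosen after seeing the data) it was 12.5. The *CARS1* to *CARS2* ratio turned to 0.874 by canonical transcript and 0.883 by coding length, and the *IARS1* to *IARS2* ratio to 1.49 by canonical transcript, 1.52 by coding length and 1.90 by counts. The Spearman correlation of usage and synthetase level was 0.153 by merged exons, 0.226 with CPM as the weight, 0.132 without *EPRS1* and 0.216 without ribosomal proteins and genes of the mitochondrial genome. With alternatives chosen after seeing the data it was -0.0421 by canonical transcript and 0.151 with the higher of *FARSA* and *FARSB*.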
